A study of Mus musculus with 3 samples.

Results

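The small RNAs described here are those of the liver of C57BL/6 mice that had received the mock vector, a self-complementary adeno-associated virus of serotype 9 (scAAV9) that carried no TuD, and whose liver was taken 4 weeks later. A TuD ("tough decoy") is an RNA hairpin that binds a chosen miRNA and blocks it. The series holds 3 libraries, 1 each for the mock vector, a TuD against miR-122 and a TuD against let-7, and only the mock library was used here, so the members are 1 of 3 samples and 3450317 of 9198794 reads. RNAs of 18 to 30 nt had been cut from a gel. The labels state neither the age of the mice nor how many animals stand behind the library. All 3 groups received scAAV9, and no uninjected liver was examined, so the values describe vector-treated liver. The library has no replicate. Intervals below are exact Clopper-Pearson 95% intervals, which cover counting error only, since the reads carried no molecular identifiers.

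A miRNA is cut from a hairpin precursor by Drosha in the nucleus and Dicer in the cytoplasm, which leaves a duplex of the 5p arm and the 3p arm. One arm, the guide, is loaded into an Argonaute protein and the other, the passenger, is mostly lost. The guide finds its mRNA targets through its seed, bases 2 to 8. The 3′ end can be shortened by nucleases or lengthened by nucleotidyl transferases that add A or U, and an added U is read as T. Hepatocytes are known for miR-122, which acts in lipid metabolism and is used by hepatitis C virus.

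The mature sequences of the abundant families are shown first, because the results turn on which miRNAs share a seed and on how close relatives differ outside it. They were read from RefSeq (GRCm38.p6), which held 77 of the 91 miRNAs with at least 1000 reads. The seed is in capitals.
miR-21a-5p: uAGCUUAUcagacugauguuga
miR-194-5p: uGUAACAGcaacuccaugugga
miR-192-5p: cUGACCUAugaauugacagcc
let-7f-5p: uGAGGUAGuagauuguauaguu
let-7a-5p: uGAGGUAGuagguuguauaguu
let-7g-5p: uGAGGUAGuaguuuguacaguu
let-7c-5p: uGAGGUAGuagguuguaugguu
let-7b-5p: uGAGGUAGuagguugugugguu
let-7i-5p: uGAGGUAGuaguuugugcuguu
miR-29a-3p: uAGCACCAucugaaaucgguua
miR-29b-3p: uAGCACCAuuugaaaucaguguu
miR-29c-3p: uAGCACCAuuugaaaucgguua
miR-101a-3p: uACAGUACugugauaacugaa
miR-26a-5p: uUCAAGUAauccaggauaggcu
miR-26b-5p: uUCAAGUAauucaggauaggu
miR-451a: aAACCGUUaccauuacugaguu
miR-21a-5p lies at chr11:86584120-86584141 (GRCm38, minus strand), where an exon of Vmp1 is annotated. miR-192-5p lies at chr19:6264857-6264877 (plus strand) with no annotated host. let-7g-5p lies at chr9:106178846-106178867 (plus strand) in an intron of Wdr82.

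The 3450317 reads came from 274320 distinct inserts. Of the reads, 2706267 (78.4%, interval 78.4 to 78.5%) were assigned to placed miRNA arms by 5′ start and matching sequence. They came from 364 arms of 265 precursors, of 1174 precursors searched, and gave 309 miRNAs. Of these, 91 had at least 1000 reads and 191 at least 100. The reads were concentrated in few species. The 2 most abundant miRNAs held 51.4% of the miRNA reads, 13 held 75%, 33 held 90% and 127 held 99%.

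miR-122-5p was the most abundant, with 1020044 reads or 37.7% of the miRNA reads (interval 37.6 to 37.7%). miR-21a-5p, known from growth and injury responses of the liver, followed with 370176 reads or 13.7% (13.6 to 13.7%), 2.76 times fewer. The next in order was miR-194-5p with 90235 reads, which is encoded beside miR-192 and miR-215. In places 4 to 10, 3 let-7 members, let-7f-5p (84227 reads), let-7a-5p (59051) and let-7g-5p (58757), alternated with miR-101b-3p (75133 reads), miR-192-5p (60827), miR-29a-3p (58347) and then miR-29b-3p (52508). let-7a-5p and let-7g-5p differed by less than counting error, as their intervals (2.16 to 2.20% and 2.15 to 2.19% of miRNA reads) overlapped, and so did those of let-7g-5p and miR-29a-3p (2.14 to 2.17%). Places 11 to 20 were taken by miR-451a (40498 reads), miR-26a-5p (37660), let-7c-5p (37273), miR-29c-3p (34924), miR-101a-3p (33207), miR-16-5p (30868), miR-30a-5p (27894), let-7b-5p (26825), miR-126a-3p (22434) and miR-26b-5p (20790). miR-26a-5p and let-7c-5p also had overlapping intervals (1.38 to 1.41% and 1.36 to 1.39%). Places count reads at 1 start per arm, so a miRNA with a frequent second start may be placed too low. The Mir101b and Mir192 precursors gave 17686 and 16946 further reads from other starts, which could move miR-101b-3p and miR-192-5p up.

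**Figure D1:**
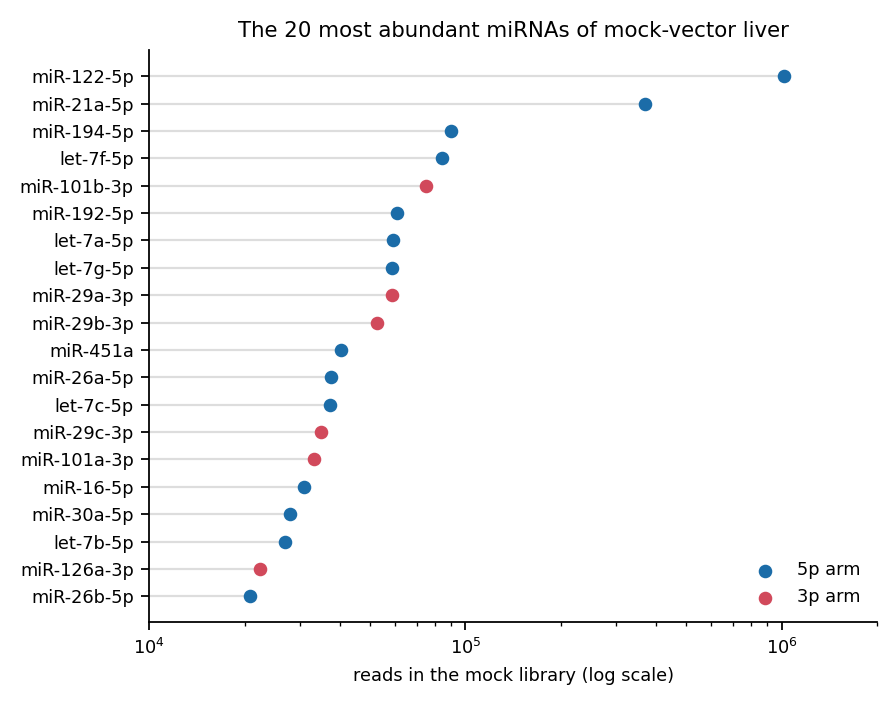
Reads of the 20 most abundant miRNAs in the mock library (horizontal log axis), coloured by arm of the precursor. miR-122-5p (1020044 reads) and miR-21a-5p (370176) stand apart, and the other 18 lie between 20790 and 90235 reads.

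Summed by seed, the let-7 family came after miR-122-5p and miR-21a-5p, with 299386 reads (11.1% of miRNA reads) over 9 members. let-7 miRNAs repress growth regulators and are common in differentiated tissue. The miR-29 seed, carried by 3 miRNAs known to repress collagens, had 145779 reads (5.39%), and the seed of miR-101a-3p and miR-101b-3p had 108340 (4.00%). The 5 miR-30 members together had 75247 reads (2.78%), the miR-192 and miR-215 seed 60849 (2.25%), of which miR-215-5p gave 22 reads, the 2 miR-26 members 58450 (2.16%) and the 6 members of the miR-15/16 seed 52169 (1.93%).

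Reads were also summed over lists of miRNAs known from particular cell types. The 10 hepatocyte miRNAs held 49.5% of the miRNA reads, and miR-122 alone held 38.0%. All 10 had at least 100 reads, from miR-122 down to miR-33, an intronic miRNA of a sterol regulator gene, with 172. The 3 erythroid miRNAs held 1.76%, almost all of it miR-451a (40498 reads) and miR-144 (5741). miR-126a, the endothelial marker, held 1.21%. The 4 stellate and stromal miRNAs held 1.06% (miR-143 19726 reads, miR-199a 5292, miR-145a 3531, miR-214 143). The 5 immune miRNAs held 0.688%, led by miR-142a (11642 reads) and miR-146a (4797), with miR-223 at 1981, miR-155 at 104 and miR-150 at 93. The 4 skeletal muscle miRNAs held 0.540%, with miR-1a at 11080 reads, miR-133a at 1784, miR-133b at 1061 and miR-206 at 681. Of the miR-133b reads, 69.6% also fit a precursor whole from another start, so that count is uncertain. The 8 epithelial miRNAs held 0.338%, led by miR-31 (4147). The imprinted Dlk1-Dio3 list held 0.0344% with 7 of 8 members placed, the neural list 0.00998% with miR-128 at 232 reads, miR-132 at 23, miR-9 at 15 and miR-124 at 0, and the pancreas list 0.00606%. The liver label was met by its defining miRNAs. The 4 pancreas miRNAs had 12 to 70 reads each, and of the neural list only miR-128 passed 100. In a bulk sample, fewer cells of a type and less RNA per cell cannot be told apart.

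Which arm of each precursor gave the reads was described over 87 units with both arms placed and at least 100 reads, where a unit is a precursor or a group of precursors that share a mature form. The 5p arm was the more abundant in 54 units and the 3p arm in 33. The more abundant arm held a median of 97.7% of a unit's reads, at least 90% in 64 units, at least 99% in 29, and under 75% in 10. Over all miRNA reads, 81.1% came from 5p arms. Each arm was counted at its most frequent start only, so arms with a frequent second start are undercounted. Of the untailed reads near each start, miR-122-3p had 47.9%, miR-126a-3p 29.7% and miR-142a-5p 24.9% at a second start.

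The strongest preference was in the Mir26a unit, with 37660 reads of miR-26a-5p and 14 of miR-26a-2-3p (99.96% 5p). Mir143 gave 19710 reads of its 3p arm and 16 of its 5p arm (99.9%), and Mir27b 18491 and 17 (99.9%). The Mir29b unit gave 52508 reads of miR-29b-3p and 70 of its 5p arms, the Mir16 unit 30868 of miR-16-5p and 42 of miR-16-1-3p, and Mir101a 33207 of its 3p arm and 50 of its 5p arm. Mir122 itself gave 1020044 reads of the 5p arm and 7036 of the 3p arm (99.3% 5p). Mir21a gave 370176 and 558 reads (99.8% 5p).

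The 8 units with the most even arms among those with at least 1000 reads included Mir151, with 558 reads of miR-151-5p and 761 of miR-151-3p (57.7% 3p, interval 55.0 to 60.4%), and Mir455, with 490 and 691 (58.5%, 55.6 to 61.3%). In both the interval lay above equal shares. The Mir199 unit, of the stromal list, had 1734 and 3659 reads (67.8% 3p). Mir126a, which lies within the endothelial gene Egfl7, had 10283 and 22434 (68.6% 3p), and both of its arms were among the 37 most abundant miRNAs. The remaining units were Mir28a (936 and 257 reads of the 5p and 3p arms, 78.5% 5p), Mir193a (292 and 1504, 83.7% 3p), Mir140 (335 and 1771, 84.1% 3p) and the leukocyte precursor Mir142 (1657 and 9985, 85.8% 3p).

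**Figure D2:**
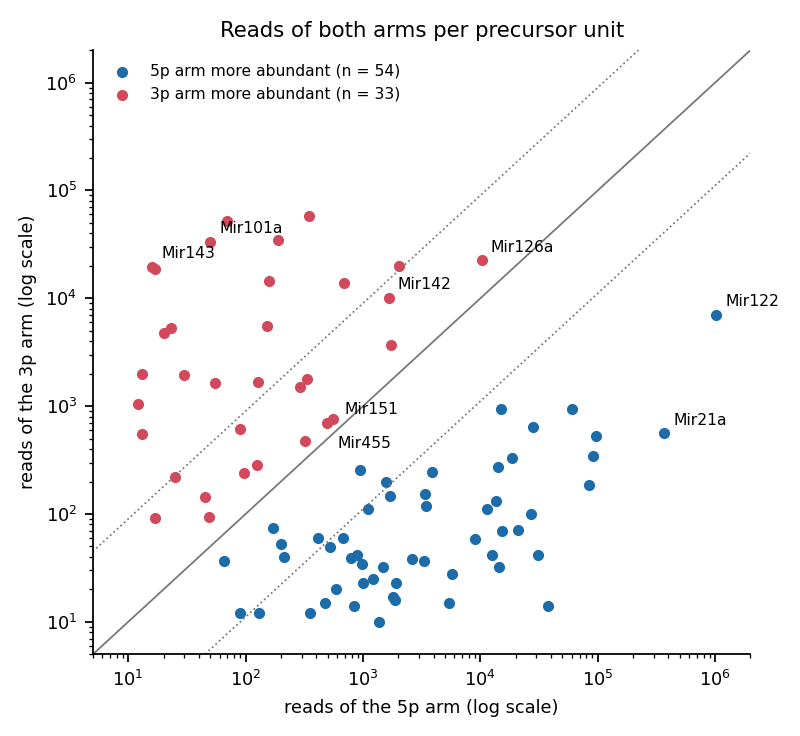
Reads of the 5p arm (horizontal, log scale) and 3p arm (vertical, log scale) of 87 precursor units. The solid line marks equal arms and the dotted lines the 90% share. 64 units lie on or outside the dotted lines, and Mir126a, Mir151 and Mir455 lie near the solid line.

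The first base of the arms differed between the abundant and the minor one. Among the 87 units, the abundant arm began with U in 55 (63.2%), with A in 18, C in 10 and G in 4. The minor arm began with C in 39 (44.8%), with A in 26, U in 17 and G in 5. U began only the abundant arm in 45 units and only the minor arm in 7. By reads, 89.8% of those assigned to 1 miRNA belonged to miRNAs that begin with U. A 5′ U is known to be favoured by the binding pocket of Argonaute. miR-451a, whose hairpin is cut by Argonaute2 and not by Dicer, was among the 26 units with at least 1000 reads and 1 placed arm, which means that no other arm reached 10 untailed reads. The others include Mir101b, Mirlet7g, Mir23a, Mir23b and Mir93.

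Where several loci make the same guide, the passenger arm can show which of them was expressed, if the passengers differ. Mir30c-1 (chromosome 4) gave 23 reads of its 3p arm and Mir30c-2 (chromosome 1) 249. Mir29b-1 (chromosome 6) gave 14 reads of its 5p arm and Mir29b-2 (chromosome 1) 56. Mirlet7f-1 (chromosome 13) gave 55 reads of its 3p arm and Mirlet7f-2 (chromosome X) 131. In each of these pairs both loci had reads, though the counts are small beside those of the guides. For miR-194-5p, only the arm of Mir194-2, on chromosome 19 beside Mir192, was placed, with 346 reads of miR-194-2-3p. For miR-16-5p only that of Mir16-1 (42 reads), for miR-125b-5p that of Mir125b-2 (133) and for miR-7a-5p that of Mir7-1 (153) were placed.

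Most miRNAs began at 1 position. The most frequent start held a median of 98.5% of the untailed reads near it over the 91 miRNAs with at least 1000 reads, and at least 90% for 76 of them. Of 295 arms with a RefSeq name, 288 began at the RefSeq start. Of 70 miRNAs from 1 locus, 12 had a second start with 10% or more of the reads. miR-122-3p was split most evenly, with 49.6% at its first start and 47.9% at the next base. miR-203-3p had 41.5% of its reads 1 nt downstream, miR-192-5p 30.3%, miR-126a-3p 29.7% and miR-10a-5p 25.1%. miR-101a-3p had 27.2% and miR-140-3p 26.3% at the base upstream, and miR-142a-5p had 24.9% at 2 nt upstream. Such a shift moves the seed by as many bases.

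miR-101b-3p had the most reads of the 7 named arms whose reads mostly began elsewhere than at the RefSeq start. Of the other 6, only miR-140-3p passed 1000 reads, and it too began 1 nt downstream. The 2 starts are shown by their most frequent inserts, with bases 2 to 8 in capitals.
miR-101b-3p from the RefSeq start: gTACAGTActgtgatagctga
miR-101b-3p from the most frequent start: tACAGTACtgtgatagctgaag
The first begins at chr19:29135338-29135358 and the second at chr19:29135339-29135360 (GRCm38, plus strand, intron of Rcl1). Of the untailed reads with either start, 54089 (76.5%) had the later one and 16657 (23.5%) the RefSeq one. The later start gives the seed of miR-101a-3p.

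miRNA inserts were mostly 22 nt (35.8%) and 23 nt (37.8%), with 14.4% at 21 nt and 5.61% at 24 nt. The matching part of a read, without any tail, was 22 nt in 44.5% of the reads assigned to 1 miRNA. Of the miRNAs with at least 1000 reads, 87 were ranked. Left out were those sharing at least their first 20 nt with another, or with at least 20% of reads that fit another precursor whole. Among the 87, the most frequent matching length was 22 nt for 49, 23 nt for 15 and 21 nt for 14. It was 24 nt for 5, 20 nt for 3 and 19 nt for 1. For the median miRNA this length held 60.4% of the reads. The ones left out are miR-378a-3p, miR-103-3p, miR-107-3p and miR-133b-3p, whose shortened or tailed reads can fit another miRNA. Close pairs such as miR-27a-3p and miR-27b-3p remain, and reads too short to tell them apart are not counted.

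miR-122-5p had 2 main ends, with 42.0% of its reads matching 22 nt and 39.1% matching 23 nt. miR-21a-5p resembled it, with 49.5% and 38.3%. miR-29 members differed. miR-29b-3p matched 23 nt in 69.1% of its reads, while miR-29a-3p and miR-29c-3p matched 21 nt in 51.8% and 50.7%. miR-30a-5p was spread, with 37.1% at 24 nt and 23.6% at 23 nt.

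**Figure D3:**
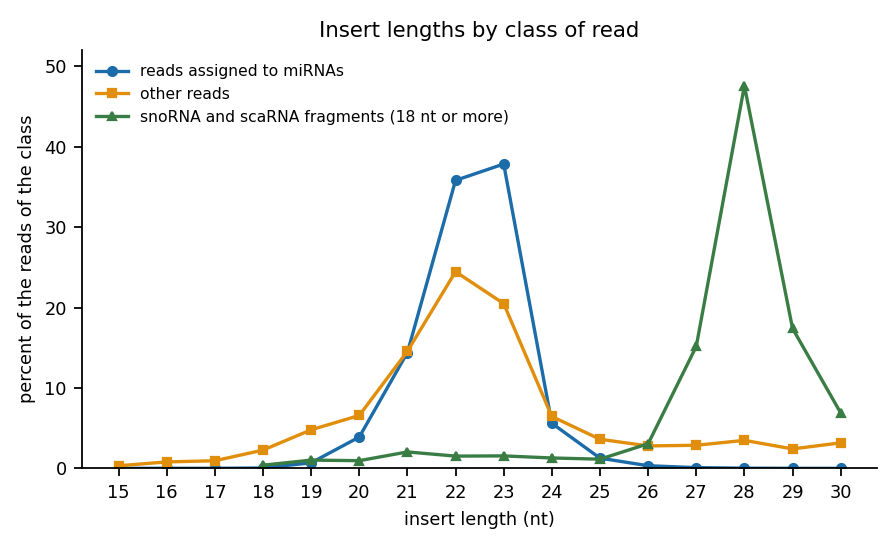
Share of the reads (vertical, percent of each class) at each insert length (horizontal, nt) for reads assigned to miRNAs, all other reads, and fragments of snoRNAs and scaRNAs. miRNA reads peak at 22 and 23 nt and snoRNA fragments at 28 nt, where 47.6% of them lie.

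Reads whose matching part was under 21 nt, here called trimmed, made up 7.15% of the reads (7.12 to 7.18%), and 9.63% without miR-122-5p. The median over the 87 miRNAs was 6.41%. miR-144-3p, an erythroid miRNA, was highest with 95.6% (95.05 to 96.14%), and 83.3% of its reads matched exactly 20 nt, which is also the length of its RefSeq form. miR-15b-5p had 53.6%, miR-101a-3p 52.2%, miR-145a-5p 50.3%, miR-122-3p 41.2% and miR-27a-3p 40.4%. miR-145a-5p had ends at 2 distant places, 39.5% at 19 nt and 30.1% at 23 nt. The lowest shares were in miR-199a-5p (1.04%), miR-425-5p (1.08%), miR-142a-3p (1.51%) and miR-148b-3p (1.52%). Trimmed reads were tailed more often than the other reads of the same miRNA in 75 of 87 miRNAs, in 49 of 51 from 5p arms and in 26 of 36 from 3p arms. The 2 measures are not independent, because an added base is counted as a tail only where it differs from the precursor and otherwise lengthens the matching part. A base change also ends the matching part. A full-length read with a change at or shortly before base 21 is thus counted as both trimmed and tailed. Without miR-122-5p, 98.1% of the reads matching 17 nt were tailed, but 2.38% with only A and 0.546% with only T. Whether shortened RNAs are tailed more often was not tested, because the count of 75 includes such reads.

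Tails of up to 5 nt at the 3′ end were found on 22.4% of the reads (22.4 to 22.5%). A tail is everything after the first base that differs from the precursor. A base change followed by further precursor bases is thus counted as a tail of at least 2 nt. How often this occurred was not tested. Tails of only A were on 12.3% of the reads, of only T on 5.61%, of only C on 0.571%, of only G on 0.342%, and mixed ones on 3.57%. The C and G values are given as the background beside which A and T are read. A single base made up 72.9% of the tails, and a single A alone 49.8%. Tails of at least 2 nt were on 6.07% of the reads. miR-122-5p had 16.2% A tails and 3.06% T tails, and without it the library had 9.98% and 7.15%. At its 22-nt form 34.0% of the reads carried an A. The next base of the miR-122 precursor there is U, so an added U cannot be seen.

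Single miRNAs differed widely in their tails. Among the 87, the A share ran from 0.212% to 53.2% (median 9.002%) and the T share from 0.208% to 51.4% (median 5.54%). These shares count all reads of a miRNA, also those that end where the precursor itself has the base and an added one is hidden. Over reads that end where an added base shows, the median was 10.6% for A and 11.4% for T, so the order of the medians turned. Over all reads, A tails exceeded T tails in 47 miRNAs. The intervals were apart in 77, with A above T in 41 and T above A in 36. A tails reached 20% in 12 miRNAs and T tails in 16. By arm, the median A share was 9.27% for the 51 from 5p arms and 8.997% for the 36 from 3p arms, and the median T share was 5.39% and 9.27%. At ends where an added base shows, the A medians were 10.6% and 13.2% and the T medians 10.1% and 13.1%.

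The sequences of miRNAs at the extremes of A and T tails are shown next with those of relatives that share their seed. Relatives with the same seed had different tail shares over all reads.
miR-652-3p: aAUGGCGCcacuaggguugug
miR-15a-5p: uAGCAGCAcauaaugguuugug
miR-16-5p: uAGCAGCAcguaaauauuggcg
miR-15b-5p: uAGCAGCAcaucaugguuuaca
miR-27a-3p: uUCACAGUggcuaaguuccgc
miR-27b-3p: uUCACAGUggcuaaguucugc
miR-126a-3p: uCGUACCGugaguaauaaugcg
miR-193a-3p: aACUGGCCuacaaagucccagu
miR-23a-3p: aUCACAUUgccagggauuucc
miR-24-3p: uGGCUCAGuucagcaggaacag
miR-130a-3p: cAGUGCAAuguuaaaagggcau

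miR-652-3p (chrX:142739060-142739080) had the largest A share, 53.2% (50.1 to 56.4%) of its 1003 reads, and a T share of 38.3% (35.3 to 41.4%). In all 96.7% of its reads were tailed, and 96.8% matched exactly the 21 nt printed above. A tails were next highest on miR-15a-5p (40.3%, 39.4 to 41.1%), miR-126a-3p (37.3%), miR-27a-3p (37.1%), miR-193a-3p (36.4%) and miR-16-5p (32.8%). miR-15b-5p, which shares the seed of miR-15a-5p and miR-16-5p, had 4.08% (3.23 to 5.06%). At its most frequent matching length the next precursor base is C, so an added A shows there. Other ends of miR-15b-5p are followed by A in the sequence above, which hides an added A. miR-27b-3p had 9.05% A tails and 23.9% T tails, against 37.1% and 18.1% for miR-27a-3p, from which it differs near the 3′ end. All of these are shares over all reads. For miR-15b-5p and miR-27b-3p, shares at ends where an added base shows are not given. How far hidden added bases enter these differences was not tested. The lowest A shares were those of miR-451a (0.212%), miR-144-3p (0.465%), miR-19a-3p (0.666%) and miR-19b-3p (0.720%). For miR-451a and miR-144-3p the next precursor base is A, which hides an added A. At the ends where an added A would show, they had 0.515% and 3.20%.

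miR-23b-3p had the largest T share, 51.4% (50.3 to 52.5%), and its seed relative miR-23a-3p had 9.54% (8.70 to 10.4%). miR-24-3p, made from the same clusters, had 43.6% T tails. miR-143-3p followed with 39.2%, miR-652-3p with 38.3%, miR-130a-3p with 33.2% and miR-146a-5p with 31.9%. T shares were lowest for miR-29b-3p (0.208%), miR-148a-3p (0.216%), let-7d-5p (0.255%) and let-7f-5p (0.261%). At ends where an added T would show, the values of miR-29b-3p and let-7f-5p were 14.7% and 11.1%, while miR-148a-3p stayed at 0.316%. For let-7d-5p the next precursor base is U, which hides an added T, and its share at other ends is not given. Tails of at least 2 nt can include base changes near the 3′ end. They were most frequent on miR-27a-3p (41.8%), miR-130a-3p (31.8%), let-7b-5p (30.9%), miR-92a-3p (22.9%), miR-361-5p (21.1%) and miR-193a-3p (20.8%). With tails of at most 2 nt counted, the last 2 fell to 12.7% and 9.64%. The lowest were miR-142a-5p, miR-21a-5p, miR-10a-5p and miR-32-5p, between 1.45% and 1.75%.

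**Figure D4:**
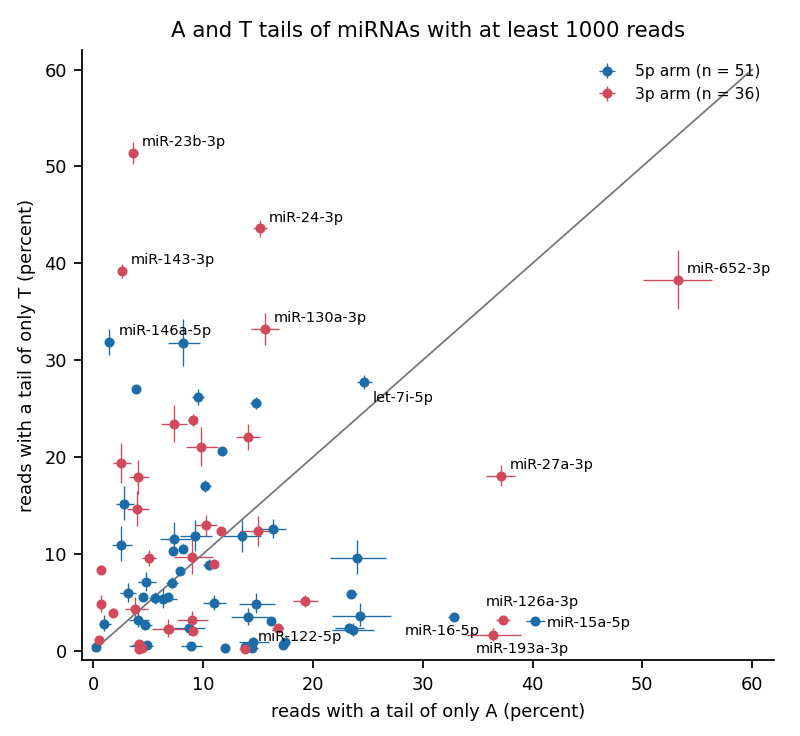
Share of reads with a tail of only A (horizontal, percent) and only T (vertical, percent) for 87 miRNAs, by arm. Bars are exact 95% intervals and the line marks equal shares. miR-23b-3p, miR-24-3p and miR-143-3p lie at high T, miR-15a-5p, miR-126a-3p and miR-16-5p at high A, and miR-652-3p is high in both.

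In the let-7 family the T share varied with the member. let-7i-5p had 27.8% T and 24.6% A tails, while let-7a-5p, let-7c-5p, let-7f-5p and let-7g-5p had 11.96% to 17.5% A and 0.261% to 0.880% T tails. Most reads of these 4 end where the next base of a precursor is a U, which hides an added T. Over the 2.10% to 11.6% of their reads that end elsewhere, T tails were on 18.3%, 19.2%, 11.1% and 4.63%, against 31.5% for let-7i-5p. The 3p arms had few reads. T tails were on 48.5% (44.2 to 52.8%) of the 532 reads shared by let-7a-1-3p and let-7c-2-3p, on 64.9% of the 131 of let-7f-2-3p, 49.1% of the 55 of let-7f-1-3p and 48.5% of the 101 of let-7b-3p. let-7i-3p had 20.3% of 69 reads and let-7d-3p 1.06% of 939, where the next precursor base is U. Apart from let-7i-3p and let-7d-3p, these passenger arms had T shares near or above the largest among the 87 ranked miRNAs (51.4%), but all except the first rest on 131 reads or fewer.

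Many miRNA genes lie in clusters that are transcribed together. With neighbours on the same strand at most 10 kb apart, 139 of the 265 precursors (52.5%) fell into 43 clusters. In 23 clusters at least 2 members had a mature form of their own locus, and the most abundant member exceeded the least by a median of 3.46-fold. The difference was under 3-fold in 10 clusters, over 10-fold in 5 and over 100-fold in 1.

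The closest were Mir497 (2590 reads) and Mir195a (2497), which differed 1.04-fold, and miR-23a-3p (4526) and miR-27a-3p (5338) on chromosome 8 (1.18-fold). On chromosome 13, miR-23b-3p had 7454 reads and miR-27b-3p 18491 (2.48-fold), and miR-24-3p, shared by both clusters, had 12309. miR-30d-5p had 8995 reads and miR-30b-5p 5681 (1.58-fold). The cluster of miR-99b-5p, let-7e-5p and miR-125a-5p had 756, 1672 and 2319 reads (3.07-fold).

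Other clusters were uneven. miR-451a had 40498 reads and miR-144-3p, from the same erythroid transcript, 5588 (7.25-fold). miR-143-3p had 19710 and miR-145a-5p 3413 (5.77-fold). In the cell cycle cluster miR-17-92, miR-18a-5p had 162 reads, miR-17-5p 212, miR-20a-5p 839 and miR-19a-3p 2554 (15.8-fold), and miR-92a-3p (4743) and miR-19b-3p (15413) can also come from its copy on the X chromosome, whose own miR-20b-5p had 45. In its relative on chromosome 5, miR-106b-5p had 172, miR-25-3p 1532 and miR-93-5p 4428 (25.7-fold). The widest was the X-linked cluster of Mir322, with 1714 reads of miR-322-5p, 245 of miR-351-5p, 123 of miR-503-5p and 16 of miR-450b-3p (107-fold). Reads are not corrected for how efficiently each sequence enters the library, so a fold between miRNAs is a ratio of reads.

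In other clusters only 1 member has a mature form of its own locus, so they give no fold. The miR-29 clusters gave 58347 reads of miR-29a-3p and 34924 of miR-29c-3p beside the shared miR-29b-3p (52508). The miR-192 locus on chromosome 19 gave 60827 reads of miR-192-5p beside the shared miR-194-5p (90235), and its counterpart on chromosome 1 gave 22 of miR-215-5p. miR-15a-5p had 12586 reads and miR-15b-5p 1914, beside the shared miR-16-5p (30868). let-7d-5p had 14931, beside let-7a-5p (59051) and let-7f-5p (84227), which other loci also encode. The loci of miR-99a-5p (11494 reads) and miR-100-5p (1542) lie beside Mirlet7c-1 and Mirlet7a-2. miR-30e-5p had 18442 reads beside the shared miR-30c-5p (14235).

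**Figure D5:**
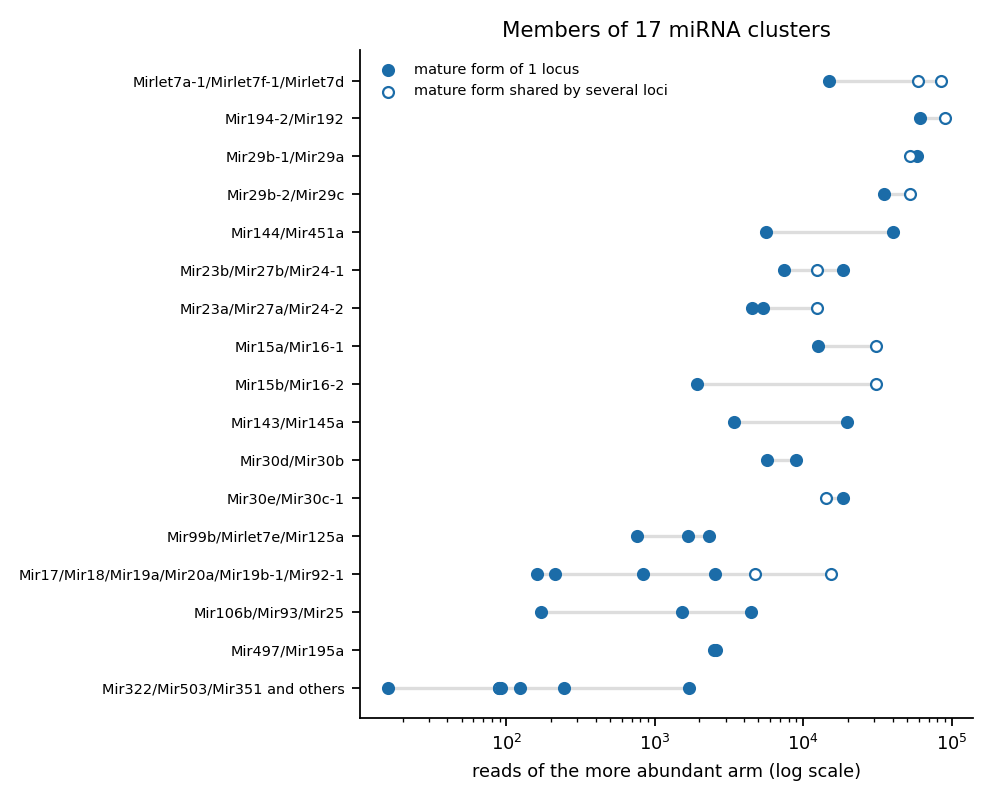
Reads of the more abundant arm (horizontal, log scale) for each member of 17 clusters. Filled points are mature forms of 1 locus and open points are forms that several loci encode. Mir497 and Mir195a almost coincide, and the members of the Mir322 cluster spread over 107-fold.

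The other 744050 reads (21.6%) were not assigned to a miRNA. Those of at least 18 nt were compared with annotated transcripts by exact sense match. The largest matched class was miRNA precursors read from other starts, with 93718 reads (2.72% of all reads). Of these, 59.5% began 1 nt downstream and 32.8% 1 nt upstream of a placed start, and Mir101b, Mir122 and Mir192 gave the most (17686, 17324 and 16946). mRNA took 0.691% of all reads, other long transcripts 0.537%, snoRNA and scaRNA 0.525%, mitochondrial RNA 0.315%, the rRNA genes of the annotation 0.0432%, other small RNAs 0.0341% and snRNA 0.0129%. A further 0.330% matched antisense only, 0.447% were under 18 nt, and 549086 reads (15.9%) had no match.

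snoRNAs guide chemical modification of rRNA. Their fragments were longer than miRNAs, with 47.6% of 18126 reads at 28 nt and 71.9% at 28 to 30 nt. The most frequent fragments of 3 abundant snoRNA genes, which are discrete products near the 3′ end, are shown.
Gm25789 fragment: ttacttgatgatagtaaaagatctgatg
Gm24452 fragment: tgcaatgatgtcatcttactactgaaa
Snord2 fragment: ctgaaatgaagagaatactcttgctgatc
Gm25789, a snoRNA gene in Gas5 (chr1:161038308-161038383, plus strand), gave 4334 reads, of which 3647 (84.1%) were the 28-nt insert from base 44 to base 71 of its 76. Gm24452, in Snhg1 (chr19:8724531-8724602, plus strand), gave 3512 reads, 81.6% of them ending 1 or 2 nt before the end of its annotated 72 nt and none at the last base. Snord2 in Eif4a2 gave 2209, and 73.6% of these were the insert shown. These classes depend on the order in which they are assigned, because snoRNA genes lie within transcripts of their hosts. With reads that fit several classes left out, snoRNA and scaRNA held 0.165% and mRNA 0.378% of all reads.

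Mitochondrial reads came mainly from mt-Rnr2, the 16S rRNA (7014 of 10854), and 86.9% of these began at its first base, the most frequent being a 21-nt insert with 2349 reads. mt-Rnr1 gave 862 reads and the tRNA mt-Ts2 736. Among annotated rRNA, 5S rRNA (n-R5s130, 119 nt) gave 1461 of 1489 reads. More 5S rRNA reads lay in other classes. 6103 unmatched reads fitted the 5S gene Gm22109 once 1 to 3 bases were removed from their 3′ end, and so did all 3026 reads that had been assigned to the mRNA Tmem38b by 21 distinct inserts. RefSeq gives Gm22109 121 nt and GENCODE 119 nt. Together these 3 sets made 10590 reads (0.307% of all reads). In the class of other transcripts, 15965 of 18522 reads (86.2%) matched Gm42418, which overlaps the 18S-rRNA-related Rn18s-rs5 of RefSeq.

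mRNA fragments differed in how often the same piece was read. Mup18 (a major urinary protein), Alb (albumin) and Serpina1a, all highly expressed hepatocyte genes, gave 1014, 638 and 309 reads from 880, 607 and 292 distinct inserts, so nearly each read was a different piece. The most frequent Mup18 fragment fitted 16 genes. Lars2 gave 2189 reads from 1022 distinct inserts, the most frequent with 18 reads. Long rRNA and nuclear tRNA sequences were not used, so whether reads placed on mRNAs such as Lars2 come from those RNAs was not tested. Of the mRNA reads, 70.3% were of inserts read once, and with such inserts left out of the library the class fell to 0.219%. The class is therefore made of repeated sequences and many single ones. snRNA reads were 446, led by Gm25679 (110), Rnu2-10 (101) and Rnu5g (62), and other small RNAs 1175, led by the signal recognition particle RNA Rn7s2 (660) and the Y RNAs Rny1 (291) and Rny3 (95). Of the Rny1 reads, 67.0% ended within 2 nt of its 3′ end and 8.59% at the last base.

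The 549086 unmatched reads were sorted further. 169317 (30.8%) fitted a placed miRNA with 1 internal mismatch. 34476 (6.28%) began within 2 nt of a placed miRNA start and carried a tail. 22472 (4.09%) fitted rRNA, mitochondrial or small RNA with 1 to 3 further bases at the 3′ end. The remaining 322821 reads were 9.36% of the library, and 46.0% of them were inserts read once. Of these remaining reads, 8.59% ended in CCA, the end of mature tRNAs, against 0.456% of miRNA reads, 8.24% of those that matched antisense only and 7.57% of those under 18 nt. No read was matched to a nuclear tRNA by this measure. Nuclear tRNA sequences, long rRNA transcripts outside that annotation and the vector's own sequence were not used here, so the rRNA share above is not the rRNA content of the library.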

How the data were processed

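The deposited table lists each distinct insert with its read count, as raw counts, per the values in the file. What adapter removal, aligner or genome build lay behind it was not given in the sources used here. No values were normalized. Python 3.11 (scipy 1.17.1) was used on 3450317 reads. An arm's 5′ end was the most frequent start of untailed reads of at least 18 nt on GENCODE vM21 (GRCm38) Mir precursors, with at least 10 reads. A read was assigned if it began there, matched at least 16 nt and had a tail of at most 5 nt. Reads that fitted several miRNAs (0.314%) were left out of single miRNAs. Names and mature sequences came from RefSeq (GRCm38.p6). Named miRNAs were the 20 most abundant, the extremes of arm, tail and length measures (6 or 8 at 1 end, 4 at the other), the listed clusters, up to 4 members of a list and the 3 leading parents of a class, except that further members and parents are named in places. The members and lists were chosen with earlier results of these data known. The counting was checked on 91 simulated miRNAs with at most 1 added A or T per read. For 89, reads were recovered within 2% and A and T shares within 2 percentage points. The others were miR-107-3p and miR-378a-3p. Only added bases that differ from the precursor were expected back, and no base changes were simulated. The check therefore does not cover hidden added bases or base changes counted as tails. Alternatives are given in the closing section. There was 1 library, so no test was run. 1 snoRNA parent is not reported here.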

Additional observations from a re-analysis of the deposited data

How the results depend on the processing

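No paired analysis was possible because only the mock library was used and no groups were compared. There is 1 library, so no replicate could be left out, and depth limits miRNAs near 10 reads. 54 of 97 recomputed summary values stayed within the counting interval or, for counts, within 1.5 times, and 43 did not. Of 264 recomputed values of single miRNAs or precursors, 231 stayed within the counting interval and 33 did not. By the looser limit of 1.5 times, 262 stayed.

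Reads assigned to miRNAs were 83.4% with 1 internal mismatch allowed, 77.1% with annotated 5′ ends, 82.0% with starts within 2 nt, 78.1% with a match of at least 18 nt and 83.4% without inserts read once. The miR-122-5p share was 37.2%, 38.4%, 36.5% and 37.8% with a mismatch, annotated 5′ ends, starts within 2 nt and no inserts read once. In the order mismatch, annotated 5′ ends, no inserts read once, match of 18 nt, starts within 2 nt and untailed reads only, the 22-nt share was 44.3%, 44.5%, 44.6%, 44.6%, 43.8% and 41.4%, and the trimmed share 7.71%, 6.68%, 7.02%, 6.81%, 7.60% and 5.45%. A tails were 12.26% with a mismatch and 12.4% with tails of at most 2 nt. T tails were 5.65% with a mismatch, 5.51% with annotated 5′ ends, 5.78% with starts within 2 nt and 5.49% with tails of at most 2 nt. Counted only at ends where an added base shows, an alternative chosen after seeing the data, A tails were 14.1% and T tails 9.57%. A exceeded T in 93 of 185 miRNAs with at least 100 reads and in 25 of 44 with at least 5000.

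Without inserts read once, mRNA, mitochondrial RNA, unmatched reads and snoRNA held 0.219%, 0.276%, 11.6% and 0.540% of all reads. With a minimum of 15 nt, mRNA held 0.719% and unmatched reads 16.3%. With a minimum of 20 nt, mRNA held 0.531%, mitochondrial RNA 0.299% and unmatched reads 14.8%. With reads of several classes left out, mRNA held 0.378%, mitochondrial RNA 0.297% and snoRNA 0.165%. Removing 1 to 3 bases from unmatched and mRNA reads, and leaving out reads that fit another precursor whole, were also chosen after seeing the data. The cause of these changes was not tested beyond what each alternative removes or adds.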

Other observations

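miR-1a-3p, known from muscle, was, among the 87 miRNAs ranked, the single one with more C tails than A or T tails. C tails were on 19.6% (18.8 to 20.3%) of its 11080 reads, A tails on 4.42% and T tails on 0.289%, while the library as a whole had 0.571% C tails. It was chosen after its values were seen. A tail is any 3′ base that differs from the GRCm38 precursor, and whether this C is added or encoded was not tested.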
